A study of Trichoderma atroviride with 42 samples.

Results

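MAP kinase cascade transcripts were followed in the filamentous fungus Trichoderma atroviride after injury and after grazing by 2 kinds of animals. The 3 genes were taken from the deposited counts by their IDs, out of 11786 genes. Tatro_005384-T1 is described in the authors' deposited table as a MAP kinase kinase kinase of the Ssk2/Ssk22 type. Tatro_003677-T1 and Tatro_000708-T1 are each described there by the conserved site of MAP kinases. These domain texts carry no gene symbol, so the IDs are used below, without the transcript suffix T1. Product texts came only with the authors' table of the 30 min injury comparison, so all 3 genes had already been listed as changed there. Their values in the 30 min injury libraries are therefore not independent evidence of a response. That table does not name its control. Changes of the other treatments against untreated controls may share its control libraries, and may then not be independent of the choice either.

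MAP kinase cascades are relays of 3 kinases. A MAP kinase kinase kinase (MAPKKK) phosphorylates a MAP kinase kinase, which phosphorylates a MAP kinase (MAPK), and the MAPK then acts on transcription factors and other targets. In the budding yeast Saccharomyces cerevisiae, Ssk2 and Ssk22 are the MAPKKKs that carry osmotic stress signals towards the MAPK Hog1. Filamentous fungi use related cascades in growth, cell wall maintenance and stress responses, and MAPK signalling is known to take part in the response of T. atroviride to injury. Kinase activity is set largely by phosphorylation, which mRNA levels do not report.

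Wild-type mycelium was grown for 36 h at 27 °C in the dark on cellophane over potato dextrose agar. It was cut with a scalpel (MI), grazed for 10 min by Drosophila melanogaster larvae (Dm) or by the collembola Orthonychiurus folsomi (Of), a springtail, and collected 30 min, 90 min, 4 h or 8 h later. Control plates were opened for 2 min and left untreated, giving an early (CT0) and a late (CT8) control. The label of CT0 says time 0, whereas 30 min is the time given for it in the study design. Each of the 14 groups had 3 libraries, which the design text calls biological replicates, each pooled from 3 technical ones. The 42 libraries held 1152096 to 5398093 counted reads, and 4 of them held fewer than 2000000. These were CT0 replicate 2, which was the lowest, Of 30 min replicate 1, Dm 90 min replicate 3 and Dm 8 h replicate 2. All 3 kinase genes passed the filter on low counts, with 109 to 1136 reads per library. Changes were tested with edgeR's quasi-likelihood test and Benjamini-Hochberg adjustment over the 9193 genes tested, and a change was called at an adjusted p under 0.05. Treatments at 30 and 90 min were set against CT0 and those at 4 and 8 h against CT8. CT8 is no nearer in time to 4 h than CT0 is, so the 4 h changes are also given against CT0, a setting added after the data were seen. Levels are given as CPM, a gene's reads scaled to a fixed library total, after TMM correction for library composition. In bulk mycelium, fewer cells with a transcript and less transcript per cell cannot be told apart.

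The 3 transcripts moved within narrow ranges. The highest group mean was 1.68 times the lowest for the MAPKKK Tatro_005384, 1.72 times for the MAPK Tatro_003677 and 1.48 times for the MAPK Tatro_000708. All 3 differed among the 14 groups, with adjusted p-values of 2.5e-08 for Tatro_005384, 3.1e-11 for Tatro_003677 and 7.5e-07 for Tatro_000708, where 83.7% of all genes tested did so. The SD of the group means on the log2 scale was 0.202, 0.265 and 0.183 for the 3 genes in that order, against a median of 0.292 over all genes tested. The MAPKKK was highest 30 min after injury, with no overlap with the next highest group. The 2 MAPKs were highest in the late control, whose libraries overlapped those of the next highest group for both.

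**Figure D1:**
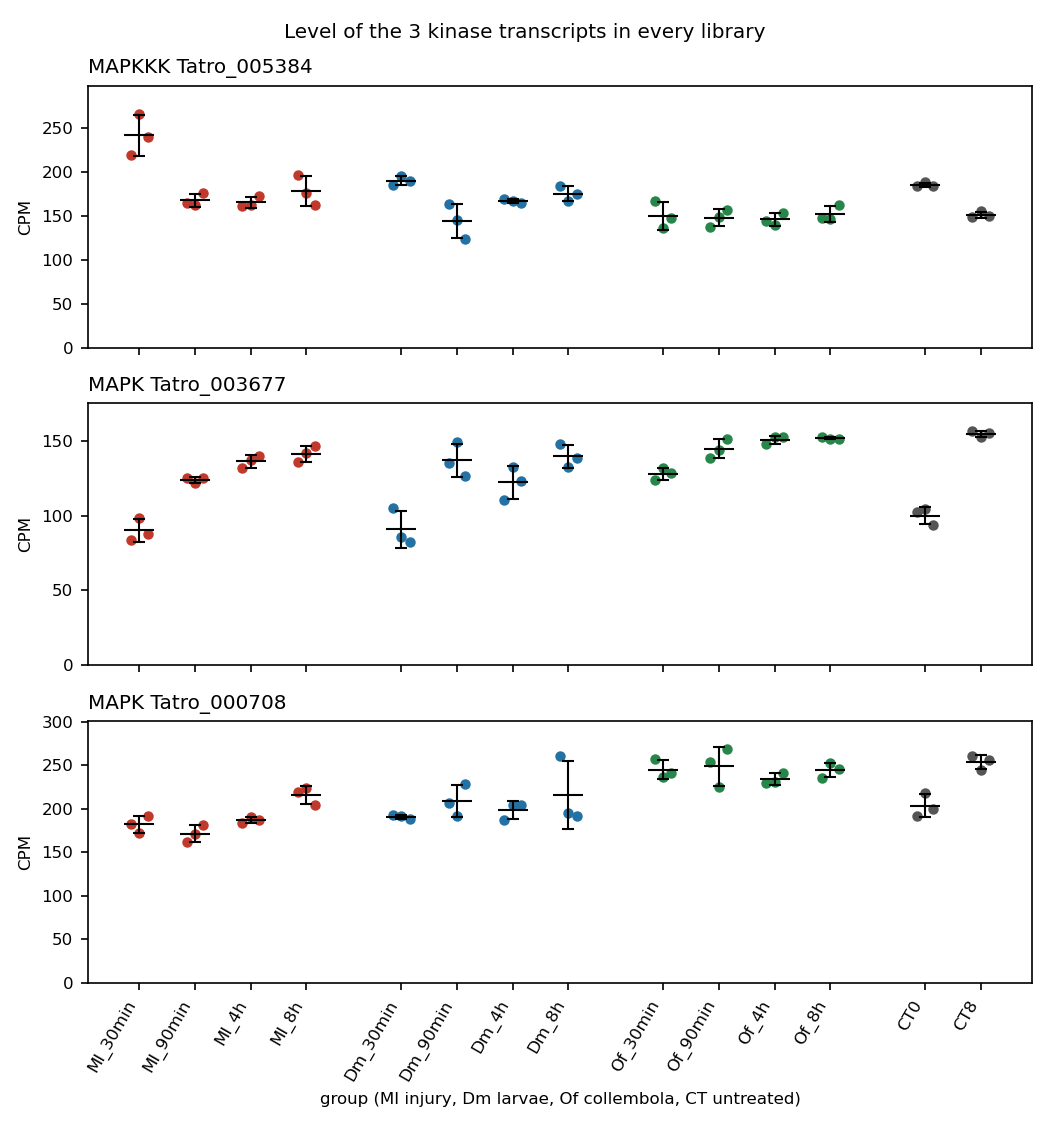
CPM (y axis) of each kinase transcript in every library (points) of the 14 groups (x axis), with the group mean and SD as bars (n = 3 each). The MAPKKK stands out in injured mycelium at 30 min (219.5 to 266.4 CPM). Tatro_000708 is high in all Of groups and CT8, and Tatro_003677 in CT8 and in Of from 90 min on.

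The MAPKKK Tatro_005384 had its highest level 30 min after injury, with 219.5, 266.4 and 239.5 CPM, against 184.0, 188.2 and 184.7 CPM in CT0. Every injured library lay above every control library. The log2 change was 0.38 ± 0.09 (SE, n = 3 each, adjusted p = 0.000627, edgeR), and the call held in every alternative fit and without any single library. At 90 min the injured libraries had 165.0, 162.9 and 176.4 CPM, below all 3 CT0 libraries, and the log2 change of -0.14 was not called (adjusted p = 0.225). Every injured library at 90 min lay below every one at 30 min, at a log2 difference of -0.53 ± 0.09. The gene was chosen on the 30 min injury libraries, so its call there, the call's stability and this fall are not independent evidence of a response.

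Late after injury the MAPKKK lay slightly above CT8. At 4 h injured mycelium had 161.6, 162.3 and 173.0 CPM and at 8 h 196.7, 175.8 and 162.8 CPM, against 148.4, 155.2 and 149.7 CPM in CT8. Neither time overlapped the control. The 4 h change of 0.13 on the log2 scale was not called (adjusted p = 0.288), nor was that against CT0, which had the other sign (-0.16, adjusted p = 0.233). The 8 h change of 0.24 ± 0.09 was called at an adjusted p of 0.0486, and that call was lost when any library other than MI 8 h replicate 3 was left out of the 2 groups, without the filter on low counts, and against the mean of both controls (0.09, adjusted p = 0.418). Over all 6 libraries left out in turn the change was 0.18 to 0.30.

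After larvae the call of the MAPKKK at 30 min depended on the control. At 30 min the larva-grazed libraries had 185.4, 196.0 and 190.0 CPM, which overlapped CT0, and the log2 change was 0.04 (95% interval -0.14 to 0.22, adjusted p = 0.77), while against the mean of both controls it was 0.19 and was called (adjusted p = 0.0434). Set directly against injury at 30 min, larva-grazed mycelium was lower by a log2 difference of -0.35 ± 0.09 (adjusted p = 0.00239), with no overlap between the libraries. At 90 min the larva-grazed libraries had 163.1, 145.6 and 124.2 CPM. These lay below all CT0 libraries and were the most spread of the MAPKKK's groups after injury at 30 min, and the log2 change of -0.34 ± 0.09 was called (adjusted p = 0.00397). That call was lost against the mean of both controls (-0.20, adjusted p = 0.0519) and in a fit of the 2 groups alone. The 4 h and 8 h changes against CT8, 0.15 and 0.22, were not called (adjusted p = 0.267 and 0.079), the 8 h change being called with DESeq2's size factors or test, although all larva-grazed libraries at those times, 164.6 to 183.9 CPM, lay above CT8.

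Collembola-grazed mycelium kept the MAPKKK near the late control at every time. It had 167.2, 136.0 and 147.8 CPM at 30 min and 137.8, 149.3 and 156.8 CPM at 90 min, all below the CT0 libraries. The log2 changes were -0.31 ± 0.09 at 30 min (adjusted p = 0.0291) and -0.32 ± 0.09 at 90 min (adjusted p = 0.0304). Both calls were lost against the mean of both controls (-0.16 and -0.18) and in fits of the 2 groups alone, the 90 min call also with library totals as the scaling and without the filter on low counts, and each was lost on leaving out any 1 CT0 library. At 30 min leaving out Of replicate 2 or 3, and at 90 min leaving out Of replicate 1 or 2, also ended the call. At 4 h the libraries had 144.8, 140.0 and 153.6 CPM and at 8 h 147.2, 146.2 and 163.0 CPM, overlapping CT8, with log2 changes of -0.05 and 0.01. Against CT0 the 4 h change was -0.34 and was called (adjusted p = 0.0104).

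The MAPK Tatro_003677 was low at 30 min after injury and larvae and in the early control, and higher at all later times. At 30 min the libraries had 83.8, 98.8 and 87.9 CPM after injury and 105.0, 85.4 and 82.2 CPM after larvae, against 102.1, 104.7 and 93.5 CPM in CT0. Both treatments overlapped the control. The log2 changes of -0.14 after injury and -0.13 after larvae were not called (adjusted p = 0.207 and 0.265).

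At 90 min Tatro_003677 was above CT0 in all 3 treatments. Injured mycelium had 124.9, 121.6 and 125.2 CPM, a log2 change of 0.32 ± 0.09 (adjusted p = 0.00425). Larva-grazed mycelium had 135.1, 149.0 and 126.8 CPM, a change of 0.47 ± 0.09 (adjusted p = 9.73e-05). Collembola-grazed mycelium had 138.7, 144.2 and 151.4 CPM, a change of 0.54 ± 0.09 (adjusted p = 0.00016). No treated library overlapped CT0. None of the 3 calls held against the mean of both controls, where the log2 changes were 0.00 after injury, 0.15 after larvae and 0.22 after collembola, and the injury and larva calls were also lost when each comparison was fitted on its own groups.

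Collembola-grazed mycelium already had 123.8, 131.6 and 128.3 CPM of Tatro_003677 at 30 min, above every CT0 library. The log2 change was 0.36 ± 0.09 (adjusted p = 0.00828), and 0.05 against the mean of both controls. The call was lost without Of replicate 2 or without CT0 replicate 3, and with library totals as the scaling. Against the larvae and the cuts of the same time the difference needs no control: both were lower than the collembola-grazed libraries, with log2 differences of -0.49 ± 0.09 for the larvae and -0.51 ± 0.09 for the injury (adjusted p = 2.58e-05 and 1.48e-05) and no overlap. Both calls held in every alternative and without any single library. The gene was chosen on the 30 min injury libraries, so its injury difference is not independent evidence of a response.

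Late, Tatro_003677 was at or below CT8, which had 156.3, 152.6 and 155.1 CPM. Larva-grazed libraries at 4 h had 110.6, 132.6 and 123.5 CPM, the lowest of the late groups, at a log2 change of -0.34 ± 0.09 (adjusted p = 0.00386). That call was lost without Dm replicate 1, its lowest library, where the change was -0.27, and against the mean of both controls (-0.02). Injured mycelium had 131.8 to 140.2 CPM at 4 h and 135.7 to 146.5 CPM at 8 h, and larva-grazed mycelium 132.6 to 148.0 CPM at 8 h. These lay below every CT8 library, yet none of the changes, -0.18, -0.13 and -0.14 in that order, was called (adjusted p = 0.11, 0.283 and 0.232). Collembola-grazed libraries had 147.7 to 152.5 CPM at 4 h and 151.4 to 152.7 CPM at 8 h, with changes of -0.04 and -0.03. Against the mean of both controls the 4 h collembola value was 0.28 and was called (adjusted p = 0.0251). Against CT0 all 3 treatments at 4 h had the other sign and were called, at 0.45 after injury, 0.30 after larvae and 0.60 after collembola (adjusted p = 0.000236, 0.0253 and 1.37e-05).

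The second MAPK, Tatro_000708, was lower in cut than in collembola-grazed mycelium up to 4 h, with tests given further on, and the 8 h difference of -0.18 was not called (adjusted p = 0.16). At 90 min injured libraries had 161.5, 171.5 and 182.0 CPM, against 192.3, 218.0 and 199.9 CPM in CT0. The groups did not overlap, and the log2 change was -0.24 ± 0.09 (adjusted p = 0.0411). That call was lost without MI replicate 1 or 2 or without CT0 replicate 2 or 3 (-0.27 to -0.16 over all 6 libraries left out in turn), with DESeq2 size factors, without the filter and in a fit of the 2 groups alone, while against the mean of both controls it was larger (-0.40, adjusted p = 9.2e-05). At 30 min injured libraries had 182.5, 172.2 and 192.3 CPM, with a change of -0.15 that was not called (adjusted p = 0.193).

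At 4 h Tatro_000708 had 184.0, 190.9 and 186.7 CPM after injury and 187.1, 204.8 and 204.3 CPM after larvae, against 260.4, 245.0 and 256.1 CPM in CT8. Both treatments lay well below the control with no overlap. The log2 changes were -0.44 ± 0.09 after injury (adjusted p = 0.000457) and -0.35 ± 0.09 after larvae (adjusted p = 0.00492). Both calls held without any single library and were lost against CT0, where the changes were -0.11 and -0.02 (adjusted p = 0.459 and 0.927). Against the mean of both controls the injury call held (-0.28, adjusted p = 0.0101) and the larva call was lost (-0.19, adjusted p = 0.105).

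By 8 h injured libraries had 218.9, 224.4 and 204.8 CPM of Tatro_000708 and larva-grazed ones 260.9, 194.9 and 191.7 CPM. The injured libraries stayed below CT8, and larva replicate 1 stood above it. Both log2 changes were -0.23 and missed the threshold (adjusted p = 0.0595 each), and the injury change was called in a fit of the 2 groups alone. Without larva replicate 1 the larva change was -0.39 and was called. Earlier larva-grazed libraries, 188.1 to 193.0 CPM at 30 min and 192.2 to 228.1 CPM at 90 min, overlapped CT0, with changes of -0.08 and 0.04 (adjusted p = 0.512 and 0.781).

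Collembola-grazed mycelium had 257.1, 236.9 and 241.8 CPM of Tatro_000708 at 30 min and 253.5, 225.0 and 268.6 CPM at 90 min, above every CT0 library. The log2 change at 30 min, 0.28, was not called (adjusted p = 0.0561), except with the DESeq2 test. The change at 90 min, 0.30 ± 0.09, was called at an adjusted p of 0.0499 and was lost in 6 of 7 alternative fits and on leaving out any library of the 2 groups but CT0 replicate 2, so it sits on the threshold. Later libraries, 229.6 to 241.7 CPM at 4 h and 235.6 to 252.3 CPM at 8 h, had changes of -0.12 and -0.05 against CT8 that were not called, and 0.21 at 4 h against CT0 (adjusted p = 0.127).

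Counted over the 3 genes, 14 of 36 changes against the matched control were called. After injury 1 of 3 genes was called at 30 min, where 46.3% of all genes tested were, 2 of 3 at 90 min (39.5%), 1 of 3 at 4 h (24.4%) and 1 of 3 at 8 h (22.5%). After larvae 0 of 3 were called at 30 min (39.5% of all genes), 2 of 3 at 90 min (33.9%), 2 of 3 at 4 h (20.5%) and 0 of 3 at 8 h (24.9%). After collembola 2 of 3 were called at 30 min (9.9% of all genes), 3 of 3 at 90 min (5.47%), 0 of 3 at 4 h (0.207%) and 0 of 3 at 8 h (0%). At 8 h after collembola edgeR called no gene at all, DESeq2 called 0, and 118 genes had an unadjusted p under 0.05. With 3 genes, these counts move by steps of 1. The genes were chosen on injury at 30 min against a control that is not named, so counts and shares are not like for like.

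The untreated controls themselves differed for all 3 genes, in a comparison where 8.41% of all genes were called. Tatro_005384 was lower in CT8, at a log2 difference of -0.30 ± 0.09 (adjusted p = 0.0353). Tatro_003677 was higher, at 155 ± 1.9 CPM in CT8 and 100 ± 5.89 CPM in CT0 (SD, n = 3 each), a difference of 0.64 ± 0.09 (adjusted p = 7.67e-06). Tatro_000708 was higher by 0.33 ± 0.09 (adjusted p = 0.0209). CT8 and CT0 libraries did not overlap for any of the 3. The Tatro_003677 call held in every alternative and without any single library. The Tatro_005384 call was lost when any 1 of the 6 control libraries was left out (-0.31 to -0.28), and the Tatro_000708 call without replicate 1 or 3 of CT8 or of CT0 (0.29 to 0.38 over all 6 left out in turn). Both were lost with library totals, and the Tatro_005384 call also without the filter and in a fit of the 2 control groups alone.

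The choice of control therefore set several calls. Against the mean of CT0 and CT8, 9 of 36 changes were called, and with CT0 in place of CT8 at 4 h 15 of 36. At 30 min after injury all 3 genes then passed, with Tatro_005384 at 0.53, Tatro_003677 at -0.46 and Tatro_000708 at -0.31 on the log2 scale (adjusted p = 2.33e-07, 4.35e-06 and 0.00119). At 30 min after larvae all 3 passed as well, at 0.19, -0.45 and -0.25 (adjusted p = 0.0434, 8.57e-06 and 0.0104). The injury and larva changes rest on the same control libraries, which may be among those the genes were chosen on. In the authors' deposited table for injury at 30 min, which does not name its control, the log2 fold changes were 0.55, -0.54 and -0.34 for the 3 genes in the same order. The authors' deposited table for larvae at 30 min lists Tatro_003677 at -0.60 and Tatro_000708 at -0.34, and not Tatro_005384. The authors' deposited table for injury at 90 min lists only Tatro_000708 of the 3 genes, at -0.48. None of the 3 is listed in the authors' tables for larvae at 90 min, collembola at 30 min, or injury and larvae at 4 h and 8 h.

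**Figure D2:**
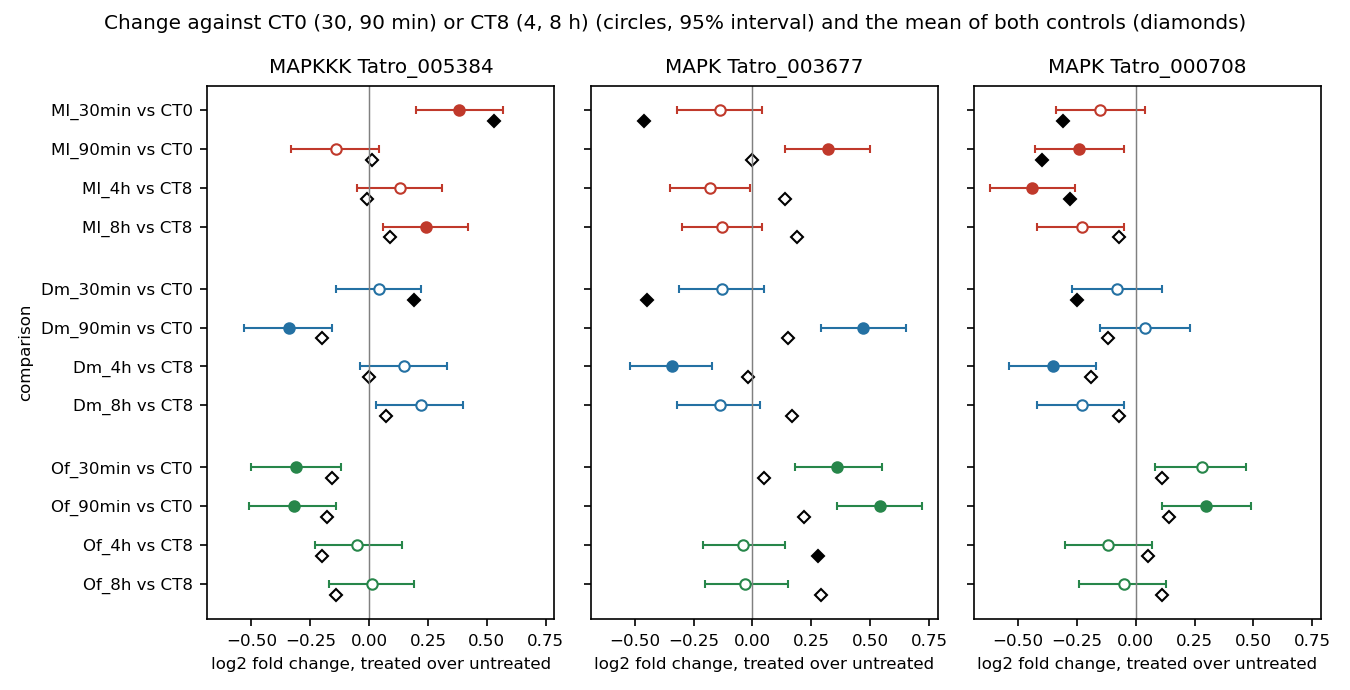
Log2 fold change of treated over untreated mycelium (x axis) for each treatment and time (y axis), against CT0 (30 and 90 min) or CT8 (4 and 8 h) (circles with 95% intervals, n = 3 each) and against the mean of CT0 and CT8 (black diamonds), with filled symbols for called changes. Of the circles 14 of 36 are filled, and of the diamonds 9 of 36, with Tatro_003677 at 30 min after injury and larvae called only against the mean of both controls.

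Direct comparisons between treatments of the same time avoid the controls, but those with injury at 30 min use the libraries on which the genes were chosen. Larva-grazed and injured mycelium differed in 2 of 12 tests. At 30 min 1 of 3 genes was called, the MAPKKK described above (31.3% of all genes were called). At 90 min 1 of 3 was called (11.7% of all genes), Tatro_000708, which averaged 209 CPM after larvae and 172 CPM after injury, a log2 difference of 0.28 ± 0.09 (adjusted p = 0.0461). That call was lost without replicate 1 or 3 of the larvae or replicate 1 or 2 of the injury, with library totals, without the filter and in a fit of the 2 groups alone. No gene of the 3 was called at 4 h (6.11% of all genes) or at 8 h (1.51%).

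Larva-grazed mycelium differed from collembola-grazed mycelium in 5 of 12 tests. All 3 genes were called at 30 min, where 41.4% of all genes were, with the MAPKKK higher by 0.35 ± 0.09 and Tatro_000708 lower, at a log2 difference of -0.36 ± 0.09 (adjusted p = 0.00224 and 0.00194), besides Tatro_003677 above. The Tatro_000708 call was lost with library totals (adjusted p = 0.0523). Of the 3, 1 was called at 90 min (34.4% of all genes), Tatro_000708 at -0.26 ± 0.09 (adjusted p = 0.028), whose libraries overlapped and whose call was lost without replicate 1 or 2 of the larvae or replicate 1 or 3 of the collembola, without the filter and in a fit of the 2 groups alone. At 4 h 1 of 3 was called (26.2%), Tatro_003677 at -0.30 ± 0.09 (adjusted p = 0.00748), a call that was lost without larva replicate 1 (-0.23) and with library totals. At 8 h 0 of 3 were called (22% of all genes). Among the differences that missed the threshold, that of Tatro_000708 at 4 h was called with the DESeq2 test and in a fit of the 2 groups alone, and at 8 h that of Tatro_005384 with the DESeq2 test and that of Tatro_000708 without larva replicate 1.

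Injured mycelium differed from collembola-grazed mycelium in 6 of 12 tests. At 30 min all 3 genes were called (45.7% of all genes), and all 3 held in every alternative and without any single library. The 3 genes had been listed as changed in the authors' 30 min injury table, so this count is not independent evidence of a response. The MAPKKK was higher by 0.70 ± 0.09 on the log2 scale (adjusted p = 8.27e-08), its largest difference between treatments of the same time. Tatro_000708 was lower, at log2 differences of -0.43 ± 0.09 at 30 min, -0.54 ± 0.09 at 90 min and -0.32 ± 0.09 at 4 h (adjusted p = 0.000264, 1.1e-05 and 0.00547), and the 4 h call was lost with library totals (adjusted p = 0.0945). At 90 min 2 of 3 genes were called (43.3% of all genes), the other being Tatro_003677 at -0.23 ± 0.09 (adjusted p = 0.0334), which was lost on leaving out any library of the 2 groups but Of replicate 1, with library totals, without the filter and in a fit of the 2 groups alone. At 4 h 1 of 3 was called (33.6%) and at 8 h 0 of 3 (21.3%). The 8 h difference of the MAPKKK, 0.23 (adjusted p = 0.061), was called in 4 of 6 alternative fits and without MI replicate 3.

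The ratio of MAPKKK to MAPK reads within a library does not depend on the scaling between libraries. Since transcript lengths differ, only its change between groups is meaningful. Reads of Tatro_005384 over those of Tatro_003677 gave 2.62 to 2.72 after injury at 30 min and 1.77 to 2.31 after larvae at 30 min, against 1.80 to 1.97 in CT0. Injury at 30 min overlapped no other group, and the larva-grazed libraries overlapped CT0. At 30 min after collembola the ratio was 1.03 to 1.35, below every CT0 library. CT8 had 0.95 to 1.02, and every treated library from 90 min on lay between 0.919 and 1.54. Reads of Tatro_005384 over those of Tatro_000708 gave 1.20 to 1.55 after injury at 30 min, against 0.863 to 0.957 in CT0. After larvae at 30 min this second ratio was 0.96 to 1.02, narrowly above every CT0 library, and after collembola 0.574 to 0.65, below every one. The genes were chosen on the 30 min injury libraries, so the ratios there are not independent evidence of a response. Over the 14 group means, the log2 levels of Tatro_005384 ran opposite to those of Tatro_003677 (Pearson r = -0.81) and of Tatro_000708 (r = -0.65), while the 2 MAPKs ran together (r = 0.65). Both genes of each pair were measured in the same libraries with the same scaling, and no test was made, so these values are descriptions.

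**Figure D3:**
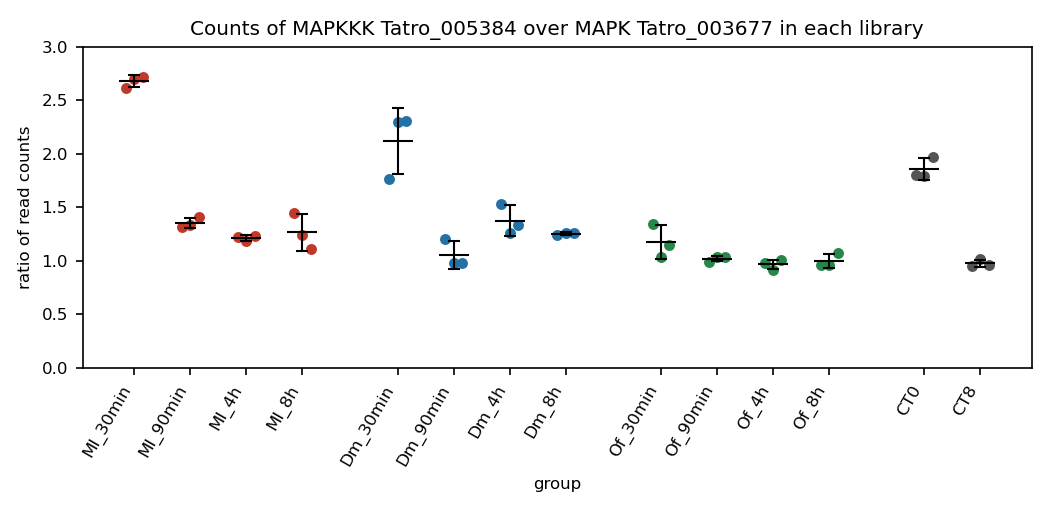
Ratio of read counts of the MAPKKK Tatro_005384 over the MAPK Tatro_003677 (y axis) in each library (points) by group (x axis), with the mean and SD as bars (n = 3 each). The 3 injured libraries at 30 min, 2.62 to 2.72, lie above all other libraries.

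Within a treatment, effects against the control were compared between times. None of the 9 differences between the 8 h and 30 min effects was called in the 3 genes, where 38.4% of all genes were called for injury, 29% for larvae and 1.91% for collembola. The lowest adjusted p, 0.0893, was that of Tatro_003677 after collembola, at a log2 difference of -0.39 ± 0.12. This difference was called with DESeq2 and in the fit of its own groups, and the Tatro_000708 difference after larvae, -0.15, was called without Dm 8 h replicate 1 (-0.34).

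Other genes followed the MAPKKK closely over the 14 groups. Among 7187 genes with a mean of at least 10 CPM, the 5 most like Tatro_005384 in their group means were a helicase, Tatro_003714 (r = 0.972), the MRC1 replication checkpoint mediator Tatro_009752 (0.957), a leucine-rich repeat protein, Tatro_006277 (0.954), a WD40 repeat protein, Tatro_000318 (0.952), and a carbohydrate kinase, Tatro_007524 (0.939). All 5 peaked 30 min after injury, at means of 50.1 to 130 CPM. MRC1-type proteins are known in yeast for signalling replication stress. These correlations rest on the same 14 groups and were the highest of many, so they carry no test.

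The profiles nearest to Tatro_003677 were those of an aldolase-type TIM barrel protein, Tatro_009797 (r = 0.971), an aldo/keto reductase, Tatro_002988 (0.970), Tatro_003661, which has no text (0.967), a CS domain protein, Tatro_006408 (0.965), and a heat shock chaperonin-binding protein, Tatro_000263 (0.960). The last averaged 138 CPM after injury at 30 min and 508 CPM in CT8, its lowest and highest groups. CS domains occur in co-chaperones of Hsp90. The profiles nearest to Tatro_000708 were those of an armadillo-like protein, Tatro_011306 (0.959), the 14-3-3 protein Tatro_005146 (0.957), Tatro_001477 (0.955), Tatro_007615 (0.948) and the inorganic pyrophosphatase Tatro_008812 (0.947). Proteins of the 14-3-3 family bind phosphorylated partners of many kinases. Tatro_005146 averaged 436 CPM after injury at 90 min and 903 CPM at 8 h after collembola, its lowest and highest groups.

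**Figure D4:**
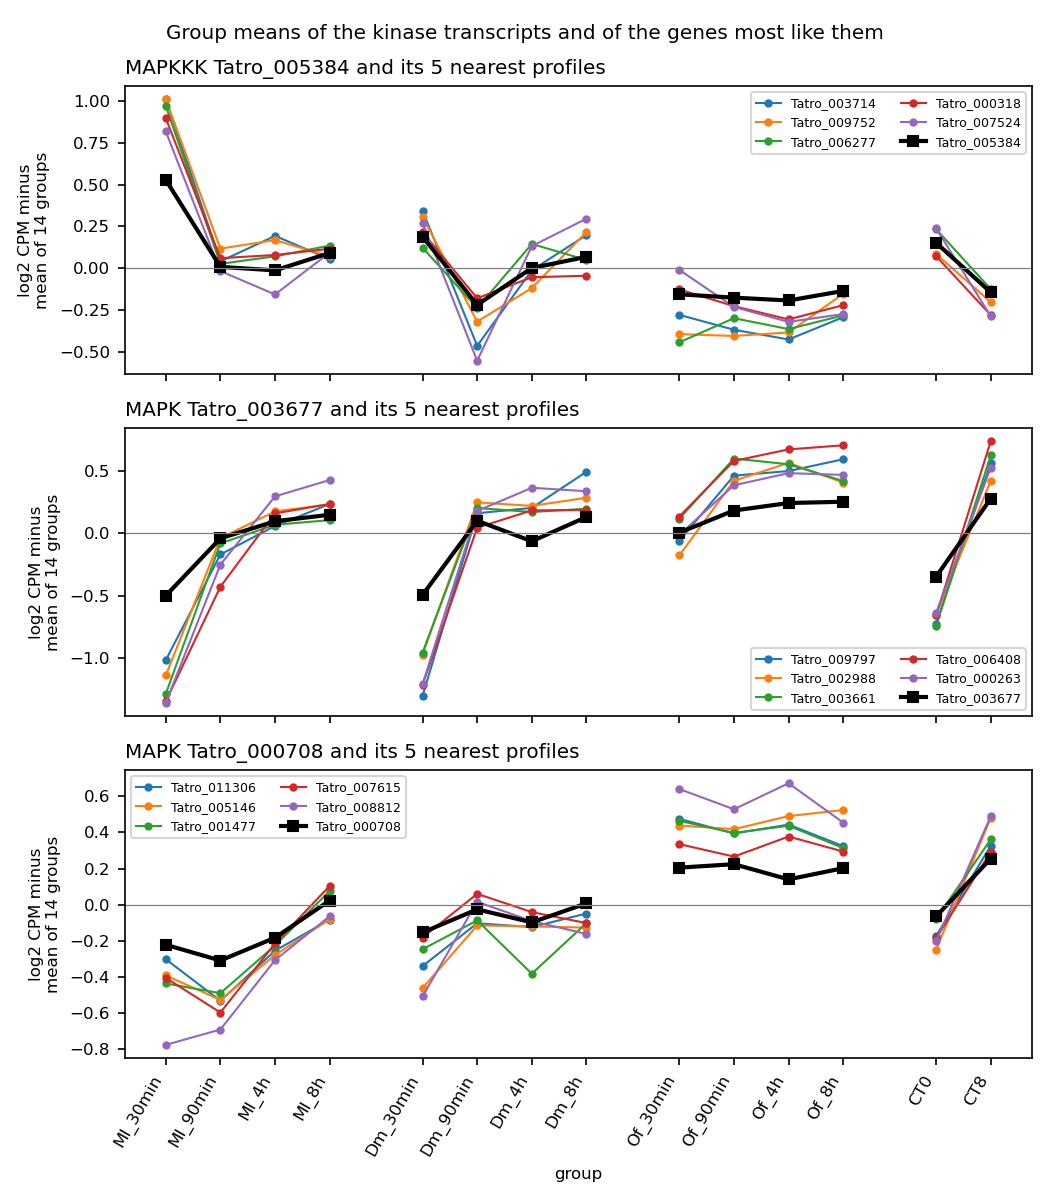
Group means of log2 CPM, centred on the mean of the 14 groups (y axis), for each kinase gene (black squares) and the 5 genes most like it (coloured circles), by group (x axis). The like genes share the shape of each kinase gene, and most span a wider range than it.

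The genes numbered next to each kinase gene in the annotation were followed at 30 min after injury, where 46.3% of all genes tested were called. At 30 min after injury Tatro_005383, a glucose/ribitol dehydrogenase, rose by 0.60 and Tatro_005385, a cytidine deaminase, by 1.36 on the log2 scale (adjusted p = 8e-07 and 1.5e-08), on either side of the MAPKKK. One place further out, the histidine phosphatase family gene Tatro_005382 fell by 0.41 (adjusted p = 0.033) and Tatro_005386 had a change of -0.78 (adjusted p = 0.24). Around Tatro_003677, the glycogen phosphorylase Tatro_003676 fell by 1.05 (adjusted p = 3e-09), and Tatro_003675, Tatro_003678 and Tatro_003679 had changes of -0.30, -0.26 and -0.33 that were not called (adjusted p = 0.17, 0.072 and 0.16). Around Tatro_000708, the TLDc domain protein Tatro_000707 fell by 0.50 and the actin-binding ADF-H/gelsolin-like protein Tatro_000709 by 0.64 (adjusted p = 0.0024 and 3.4e-07), Tatro_000710 rose by 0.63 (adjusted p = 0.015), and Tatro_000706 had a change of -0.08 (adjusted p = 0.72). The genes called after injury were also followed at 30 min after grazing. After larvae Tatro_005383, Tatro_003676 and Tatro_000710 were called, at 0.30, -0.68 and 0.98 (adjusted p = 0.0063, 1.4e-05 and 0.00025). Tatro_005382, Tatro_005385, Tatro_000707 and Tatro_000709, at 0, -0.40, 0.11 and 0.03, were not (adjusted p = 0.99, 0.053, 0.54 and 0.83). After collembola only Tatro_005383 and Tatro_000709 were called, at -0.29 and 0.38 (adjusted p = 0.036 and 0.0052). Consecutive ID numbers were taken as neighbours, and their strands and distances were not used here.

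The product texts cover only genes of the authors' 30 min injury table, so cascade genes outside it could not be found. These texts name no other MAP kinase cascade gene. No two-component phosphorelay or NADPH oxidase gene was left once wrong word matches were removed. The wider signalling genes below were found by words in the same texts, so each list was chosen on the 30 min injury libraries and its count there is not independent evidence of a response. The larva and collembola counts use the same chosen genes and may share the control libraries of that choice. The shares beside them cover all genes tested, so counts and shares are not like for like. Of 31 other protein kinases, 16 rose and 13 fell at 30 min after injury, with a median log2 change of 0.49 against -0.03 over all genes tested, of which 22.5% rose and 23.8% fell. After larvae 8 rose and 9 fell (median 0.14, with 19.1% and 20.4% of all genes), and after collembola 1 rose and 1 fell (median 0.04, with 6.2% and 3.7%). The balance of all genes after collembola depended on the scaling: 62.6% of the genes called at 30 min rose with TMM factors, and 16.3% with library totals. Tatro_009755 had 171 ± 6.48 CPM after injury at 30 min, against 69.5 ± 11.5 CPM in CT0 (SD, n = 3 each), a change of 1.30 ± 0.16 (adjusted p = 1.9e-08). Tatro_004611 fell by 1.61 ± 0.31 (adjusted p = 4.6e-05).

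Phosphatases reverse what kinases do. Of 15 protein phosphatases, 6 rose and 7 fell at 30 min after injury (median log2 change -0.26), where 22.5% and 23.8% of all genes did. After larvae 4 rose and 5 fell (-0.22), with 19.1% and 20.4% of all genes, and after collembola 2 rose and 0 fell (0.13), with 6.2% and 3.7%. The dual specificity phosphatase Tatro_008687, of a class that includes phosphatases of MAP kinases, rose by 0.94 ± 0.13 after injury and by 0.85 ± 0.13 after larvae (adjusted p = 2.3e-07 and 2.5e-06). The tyrosine phosphatase-like Tatro_004418 fell by 0.68 after injury at 30 min and by 0.84 after larvae at 8 h (adjusted p = 0.00021 and 2.8e-05).

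Signals can reach such cascades from receptors and calcium. Shares of all genes at 30 min were again 22.5% up and 23.8% down after injury, 19.1% and 20.4% after larvae, and 6.2% and 3.7% after collembola. Of 3 G protein-coupled receptors, 2 rose and 1 fell after injury, 2 rose and 0 fell after larvae, and 0 were called after collembola. Tatro_008852 rose by 0.80 after injury and by 0.80 after larvae (adjusted p = 4.6e-05 and 5.3e-05). Of 11 calcium signalling genes, 7 rose and 4 fell after injury, 3 rose and 2 fell after larvae, and 0 were called after collembola. The calcium/proton exchanger Tatro_001403, which moves calcium across membranes, rose by 1.47 ± 0.17 after injury (adjusted p = 9.4e-09), and its change of 0.42 after larvae was not called (adjusted p = 0.058). Of 6 scaffold and adaptor genes 3 rose and 2 fell after injury, 1 rose and 1 fell after larvae, and 2 rose and 0 fell after collembola. The 14-3-3 gene Tatro_009791 fell by 0.30 and the SH3 domain gene Tatro_006005 rose by 0.71 after injury (adjusted p = 0.0026 and 8.9e-07). The change of another 14-3-3 gene, Tatro_005146, was -0.14 after injury and was not called (adjusted p = 0.18).

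Of 101 transcription factors, 56 rose and 40 fell at 30 min after injury (median log2 change 0.42), where 22.5% and 23.8% of all genes did, though the list was drawn from genes the authors had listed as changed there. After larvae 24 rose and 29 fell (-0.07), with 19.1% and 20.4% of all genes, and after collembola 3 rose and 4 fell (-0.08), with 6.2% and 3.7%. The largest rise among those named was that of Tatro_008005, by 5.53 ± 0.30 after injury and by 4.21 ± 0.29 after larvae (adjusted p = 1.4e-17 and 7.1e-14). Water channels are known for a part in osmotic balance, and both aquaporin-like genes of the osmolyte list rose after injury and after larvae at 30 min, and neither was called after collembola. Tatro_007125 had 18.8 ± 1.06 CPM after injury, against 2.27 ± 0.839 CPM in CT0 (SD, n = 3 each), a change of 2.97 ± 0.28 (adjusted p = 4.4e-11), while the other was below 4 CPM on average in both. Of 4 exocyst and chitin synthase genes, which serve growth at the hyphal tip, 1 rose and 3 fell at 30 min after injury, 1 rose and 2 fell after larvae, and 0 were called after collembola. At 30 min after injury the chitin synthase Tatro_003420 rose by 0.93 ± 0.17 and the exocyst subunit Tatro_008180 fell by 0.67 ± 0.13 (adjusted p = 1.6e-05 and 3.9e-05). The other chitin synthase, Tatro_001815, fell by 0.50 ± 0.11 (adjusted p = 0.00025). It averaged 823 CPM in CT0, against 63.8 CPM for Tatro_003420.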

How the data were processed

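The members and lists were chosen with earlier results of these data known. The authors deposited raw read counts per transcript model. Per the submitters' processing notes, FastQC 0.11.6, HISAT2 2.1.0 and HTSeq 0.14.1 were used. Build, annotation and strand setting were not given in the sources used here. Genes that overlap are therefore uncertain. The authors' deposited tables, per the file headers, give log2 fold changes, log2 CPM, an F score, p-values and false discovery rates. They were used for product texts (2865 of 3323 genes) and the fold changes quoted.

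In all 204 genes with several models the counts were identical, so 1 model per gene was kept. Counts were fitted in R 4.3.3 with edgeR 4.0.16 (default expression filter, 9193 of 11786 genes left; TMM factors; 1 coefficient per group over all 42 libraries), which was tested on simulated data. Standard errors were taken from the fold change and the F statistic. Alternatives were the mean of both controls, DESeq2 1.42.0 size factors or its test, library totals, no filter, a replicate block, fits of the compared groups alone and leaving out each library.

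Named genes were the 3 members, the 2 IDs on each side, the 5 nearest profiles (group means of log2 CPM, prior count 2), and some list genes. The list genes came from the called genes of each list with the largest changes in either direction and at least 10 CPM, or from all genes of small lists. Not all of these were named. Word matches of another meaning were removed from the lists after the product texts, not the values, were seen. CT0 as the control at 4 h was tried after the data were seen. Same-numbered libraries of different groups were not paired: their deviations correlated by -0.21 to 0.11, and in 0 of 25 comparisons were all 3 correlations over 0.1. One list of signalling genes is not reported here.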

Additional observations from a re-analysis of the deposited data

Results flagged for a closer look

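In 13 cases a kinase transcript lay above the control in all 3 libraries at one time and below it in all 3 at another time of the same treatment. The log2 difference between the effects is given as a description. The cases were chosen for it, so it was not tested. For the MAPKKK Tatro_005384 after injury, the 90 min effect minus the 30 min effect was -0.53, and the 4 h and 8 h effects minus the 90 min effect were 0.27 and 0.38. After larvae, its 4 h and 8 h effects minus the 90 min effect were 0.49 and 0.56. For the MAPK Tatro_003677 the 4 h and 8 h effects minus the 90 min effect were -0.50 and -0.45 after injury and -0.81 and -0.61 after larvae. After collembola its 4 h effect minus the 30 min and 90 min effects was -0.40 and -0.58. For the MAPK Tatro_000708 the same collembola differences were -0.39 and -0.42. In 12 of the 13 the earlier effect was set against CT0 and the later one against CT8, and the difference between those controls cannot be told apart from a change of the effect.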

How the results depend on the processing

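Of the 30 called values among 84, 9 kept their call in every alternative and without any library of the groups compared, and 10 did so when the mean of both controls is set aside. Those kept include Tatro_005384 at 30 min after injury and between larvae and injury at 30 min. They also include all 3 genes between injury and collembola at 30 min. These use the injury libraries on which the genes were chosen, so their stability is not independent evidence of a response. Among all 84 values, calls ended for 11 in fits of the compared groups alone, 10 with library totals, 10 against the mean of both controls besides a turned value, 8 without a filter, 3 with a replicate block, 2 with DESeq2 size factors and 0 with the DESeq2 test, which added 6. Against the mean of both controls 9 of 36 treatment changes were called, against 14, and 2 values turned: Tatro_003677 was at 0.00 at 90 min after injury and at 0.28 at 4 h after collembola, where this setting by construction brings the other control, which differs for this gene, into the comparison. In fits of the compared groups alone, 8 treatment changes, 1 larva against injury and 1 difference between the 8 h and 30 min effects were called, and DESeq2 also called 1 of the last. With library totals 3 larva against collembola, 1 larva against injury and 1 of the 3 control differences were called. Without a filter 1 larva against injury difference was called. For these the cause was not tested. With single libraries left out, 8 to 18 treatment changes, 1 to 2 larva against injury, 1 to 3 control and 0 to 1 effect differences were called. The 8 came without CT0 replicate 3. With CT0 at 4 h, an alternative chosen after seeing the data, 15 treatment changes were called, 2 calls of Tatro_000708 ended, and Tatro_003677 turned to 0.45 after injury, 0.30 after larvae and 0.60 after collembola. A replicate block, for numbers that do not pair the samples, left 12 of 36 treatment changes and 1 larva against injury difference, with no call for Tatro_005384 at 8 h after injury, Tatro_000708 at 90 min after collembola, and Tatro_000708 at 90 min between larvae and injury.

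Counts over all genes moved by over 1.5 times in several comparisons. Against the mean of both controls collembola gave 545, 13, 408 and 12 genes in order of time, against 910, 503, 19 and 0. In fits of the compared groups alone the counts were 1274 against 3114 (larvae, 90 min), 1444 against 2290 (larvae, 8 h), 672 against 19 and 1 against 0 (collembola, 4 h and 8 h), 77 against 1078 and 11 against 139 (larvae minus injury, 90 min and 8 h), 1883 against 3160 and 1126 against 2023 (larvae minus collembola, 90 min and 8 h), and 700 against 176 (collembola effects between times), where DESeq2 gave 341. At 4 h after collembola library totals gave 32 and DESeq2 52 genes. With CT0 at 4 h, 1025 genes against 1888 were called after larvae and 1193 against 19 after collembola. Library totals shifted the median of all genes by -0.17 at 30 min after collembola and by 0.179 in the collembola difference between times.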
